A study of Mus musculus with 8 samples.

Results

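The complement system genes were taken as a list of 32 named genes of the mouse complement cascade, found by symbol among the 27277 genes of the deposited count table, and all 32 were present. They comprise C1qa, C1qb and C1qc, 6 further recognition and protease genes of the classical and lectin pathways, 5 convertase components, Cfd and Cfp, 6 terminal components, 5 fluid-phase regulators, 3 membrane regulators and 2 receptors. The libraries came from mouse primary hepatocytes, isolated from liver by enzymatic digestion, cultured for 24 h and treated with 100 nM glucagon, the fasting hormone, for 12 h. Knockout cells carried floxed Lcmr1 alleles together with albumin-cre (Lcmr1f/f * albumin-cre), in which the albumin promoter drives Cre in hepatocytes, and control cells carried the floxed alleles without Cre (Lcmr1f/f). Every library of both genotypes received glucagon, so its effect cannot be read here. RNA was sequenced in 3 knockout and 3 control libraries, and chromatin immunoprecipitation (ChIP) in 1 library per genotype. The labels do not tie the numbered libraries to separate animals, and p-values therefore reflect the variation among these samples alone, which may be technical. The sources used here do not give the age or sex of the mice.

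Complement is a cascade of plasma proteins that marks and lyses targets. The classical pathway starts when C1q, with its proteases C1r and C1s, binds a surface, and the lectin pathway starts when mannose-binding lectins with the MASP proteases bind sugars. Both cleave C4 and C2 into a C3 convertase, whereas the alternative pathway builds its convertase from C3 and factor B with the help of factor D and properdin. Cleavage of C3 and then C5 leads to assembly of C6, C7, C8 and C9 into the membrane attack complex. Hepatocytes make most of the soluble components, macrophages are the main source of C1q, and factor D (adipsin) is known as a product of fat cells.

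Total counts per RNA library ranged from 22191786 to 26595249. Med19 (ENSMUSG00000027080, chromosome 2, 84678402 to 84688215, mm10, plus strand), the current symbol of Lcmr1 and a subunit of the Mediator complex, had 2.91, 5.27 and 3.02 CPM (counts scaled to a common library size with TMM factors) in the knockout libraries, against 7.5, 10.8 and 13.4 CPM in the control libraries. The groups did not overlap. The mean was 3.73 ± 1.33 CPM in knockout and 10.5 ± 2.94 CPM in control libraries (SD, n = 3 each, edgeR adjusted p = 0.012, and 0.05053 without knockout replicate 1). Control replicate 1 stood apart from the other control libraries, and the chi-square of its counts against theirs, divided by the degrees of freedom, was 135 and 129, whereas control replicates 2 and 3 gave 6.84 against each other. All 9 hepatocyte markers tested were lower in the knockout libraries, with a summed level of 28035 to 38024 CPM in knockout and 109140 to 122406 CPM in control libraries. Alb, the plasma protein albumin, averaged 16256 ± 4219 CPM in knockout and 75058 ± 731 CPM in control libraries (SD, n = 3 each). The hepatocyte markers were abundant in every library of both genotypes. In bulk samples like these, fewer cells of a type and less RNA per cell cannot be told apart.

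Liver-made soluble components and regulators were mostly lower in the knockout libraries (17 of 22, with 2 higher and 3 not called), and the 3 C1q genes, known from macrophages, were higher. At an adjusted p under 0.05 in edgeR's quasi-likelihood test, with adjustment over all 15135 genes tested, 6 of the 32 members were higher and 18 were lower in the knockout libraries, and 8 were not called. Over all genes tested, 12.6% were called higher and 13% were called lower. The median log2 fold change (knockout over control) was -0.49 over the members and 0.01 over all genes tested. The CPM values of both groups did not overlap for 26 of the 32 members, against 45.9% of all genes tested. All 32 members passed the filter on low counts, but Cfd, factor D, passed it through the control libraries alone, so its place among the lower members is a description. The direction of many smaller changes depended on scaling. With library size alone in place of TMM factors the median of all genes moved up by 0.59, 50.9% of all genes were then called higher and 4.08% lower, and 10 members were called higher and 9 lower, with a member median of 0.10. Apart from Cfd, the 8 members lower under both scalings were C3, C8a, C9, C6, Hc, Mbl1, C4bp and Serping1, and the 6 higher under both were C1qa, C1qb, C1qc, C2, Cfp and Cfi. The authors' deposited table marks 10 members as significant, with C2 higher and C9, C6, C3, Mbl2, C4bp, Hc, C8a, Mbl1 and Cfd lower in the knockout. That mark is stricter than an adjusted p under 0.05, and each marked member has a log2 fold change of at least 1.00 in size there. Unmarked members include Serping1 (log2 fold change -0.92, authors' adjusted p = 4.69e-10) and C1qb (0.75, authors' adjusted p = 1.04e-05).

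**Figure D1:**
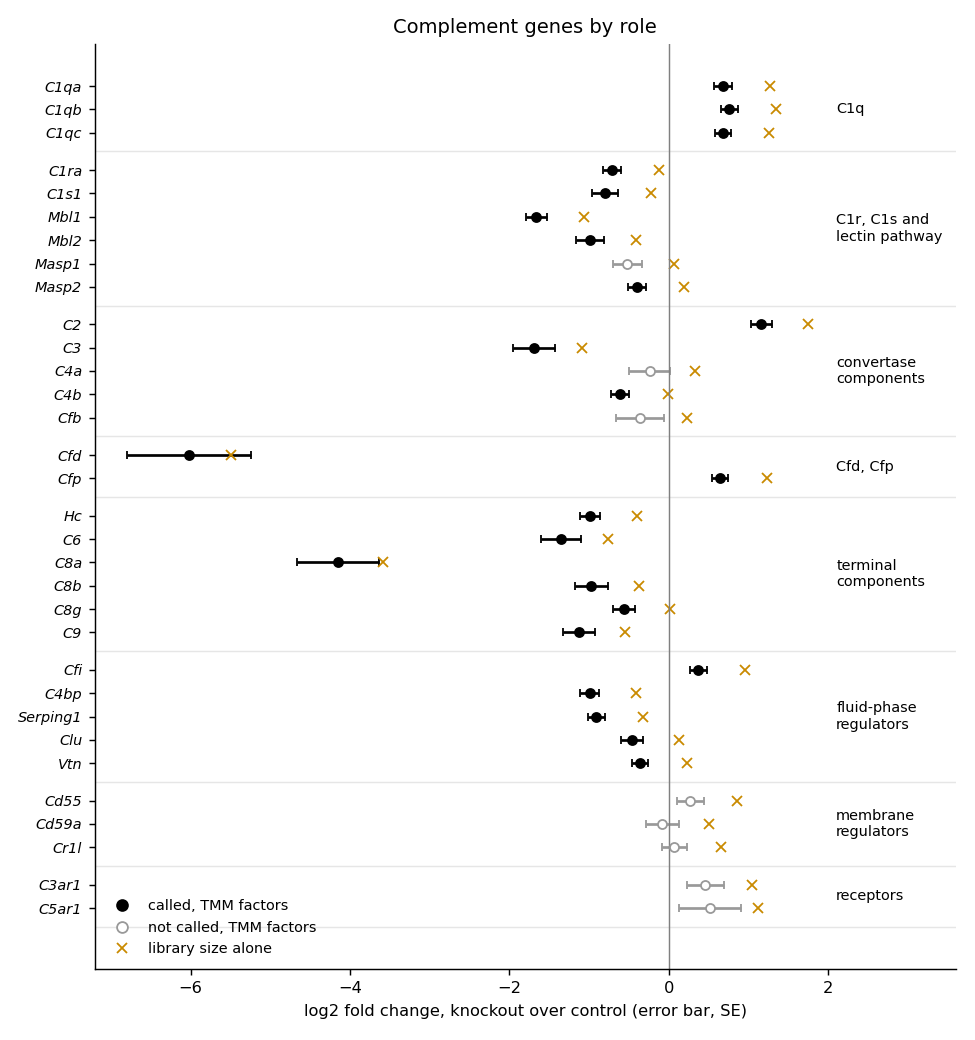
Log2 fold change, knockout over control, of each of the 32 complement genes (circles, with bars of 1 SE from edgeR), grouped by role. Filled circles mark called genes and crosses give the value with library size alone. With TMM factors the lowest circles are Cfd at -6.02 and C8a at -4.15, the highest is C2 at 1.16, and the circles of the terminal components all lie below 0.

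The recognition and protease genes of the liver were lower as a group in the knockout libraries. Of these 6 members, 5 fell and 1 (Masp1) was not called, with a median log2 fold change of -0.76, and Masp1 and Masp2 turned sign (0.07 and 0.19) with library size alone. Mbl1 (ENSMUSG00000037780, chromosome 14, 41151458 to 41159601, plus strand), a mannose-binding lectin that recognises microbial sugars, had 55.8, 68.6 and 53.6 CPM in the knockout libraries, against 176, 188 and 198 CPM in the control libraries. The groups stood well apart, and Mbl1 fell by 1.66 ± 0.13 on the log2 scale (SE, edgeR adjusted p = 0.0003838). Mbl2, the other mannose-binding lectin, had 173, 169 and 162 CPM in the knockout libraries, against 240, 383 and 378 CPM in the control libraries. Control replicate 1 was the lowest of its group but still above every knockout library, and Mbl2 fell by 0.99 ± 0.18 on the log2 scale (SE, edgeR adjusted p = 0.007881). With library size alone Mbl1 was still called lower, at -1.07, and Mbl2 was at -0.41 and not called. Within each library the ratio of Mbl1 to Mbl2 CPM was 0.323, 0.407 and 0.33 in the knockout libraries, against 0.734, 0.491 and 0.523 in the control libraries. The ratio was lower in all 3 knockout libraries, and an exact two-sided permutation test gave p = 0.1, the smallest that 3 against 3 libraries allow (0.2 after Benjamini-Hochberg adjustment over the 12 ratios computed).

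The proteases had smaller fold changes than the lectins as point estimates, a difference that was not tested. C1ra, the mouse C1r protease that activates C1s, had 190, 207 and 187 CPM in the knockout libraries, against 290, 331 and 332 CPM in the control libraries, and fell by 0.71 ± 0.11 on the log2 scale (SE, edgeR adjusted p = 0.004281). C1s1, the C1s protease that cleaves C4 and C2, had 184, 226 and 194 CPM in the knockout libraries, against 279, 401 and 369 CPM in the control libraries, and fell by 0.80 ± 0.16 (SE, edgeR adjusted p = 0.01076). With TMM factors these neighbouring genes on chromosome 6, 6901 bases apart, were both lower in every knockout library than in any control library. With library size alone their log2 fold changes were -0.12 and -0.22 and neither was called, and the C1s1 call ended without knockout replicate 1 (edgeR adjusted p = 0.05016). Masp2, the lectin pathway protease that cleaves C4 and C2, had 155, 155 and 166 CPM in the knockout libraries, against 192, 219 and 215 CPM in the control libraries. Its groups did not overlap and it fell by 0.40 ± 0.11 (SE, edgeR adjusted p = 0.03073), but the call was lost when any library but control replicate 1 was dropped (edgeR adjusted p 0.05252 to 0.1046), with upper-quartile factors (0.07247) and without the count filter (0.05674). Masp1, the protease that activates Masp2, averaged 54.6 ± 11.2 CPM in knockout and 78.3 ± 11.6 CPM in control libraries (SD, n = 3 each) and was not called (edgeR adjusted p = 0.0681). Without control replicate 1 it was called lower, at -0.63 (edgeR adjusted p = 0.02499). Masp1 shares 300 bases with Rtp4 and Masp2 shares 3118 bases with Tardbp on the opposite strand, and the sources used here do not say whether counting used the strand.

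C3, the central component that every pathway cleaves, was lower in the knockout. C3 (ENSMUSG00000024164, chromosome 17, 57203970 to 57228136, minus strand) had 4307, 4963 and 3583 CPM in the knockout libraries, against 19442, 11783 and 10229 CPM in the control libraries. Every knockout library was below every control library, and control replicate 1 was the highest of its group. The mean was 4284 ± 690 CPM in knockout and 13818 ± 4933 CPM in control libraries (SD, n = 3 each), a control level 3.23 times the knockout level. On the log2 scale C3 fell by 1.69 ± 0.26 (SE, edgeR adjusted p = 0.004044), and by 1.37 without control replicate 1 (edgeR adjusted p = 0.0002277). As a share of all counts C3 made up 0.523%, 0.593% and 0.454% in the knockout libraries, against 1.5%, 0.986% and 0.856% in the control libraries. The other 31 members together took 1.32% ± 0.0239 of all counts in knockout and 1.33% ± 0.0314 in control libraries (SD, n = 3 each), so on that scale, which uses no TMM factor, C3 held the difference of the summed members. Albumin fell alongside C3, and the C3 to Alb ratio was 0.309, 0.235 and 0.261 in the knockout libraries, against 0.261, 0.157 and 0.135 in the control libraries. These ratios overlapped between the groups (exact two-sided permutation p = 0.3, adjusted p = 0.36 over the 12 ratios).

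The 300 bases around the annotated start of C3 (250 before and 50 after, RefSeq GRCm38.p6, chr17:57228087-57228386, minus strand) are shown because C3 is the component on which the pathways meet and because its promoter matches several of the motifs searched. Capitals mark matches to the motifs searched.
C3: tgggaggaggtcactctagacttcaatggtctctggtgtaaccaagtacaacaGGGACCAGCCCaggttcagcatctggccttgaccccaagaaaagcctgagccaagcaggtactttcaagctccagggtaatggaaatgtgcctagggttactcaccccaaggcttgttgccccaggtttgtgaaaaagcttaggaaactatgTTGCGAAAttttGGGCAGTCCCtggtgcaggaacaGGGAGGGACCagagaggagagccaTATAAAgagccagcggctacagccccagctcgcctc
Counted from the first base printed, the C/EBP-type match lies at position 206, the TATA box at 265 and NF-kB-type matches at 54, 55, 218 and 241, those at 54 and 55 overlapping and that at 218 reading on both strands. The motifs were searched as exact letters on both strands, as TTGCNNAA for the C/EBP type, TTCNNNGAA for the STAT3 type, GTTAATNA for the HNF1 type, CAAAGTCCA for the HNF4 type and TATAAA for the TATA box, beside longer motifs of the NF-kB and interferon types. Of the 32 members, 23 had a promoter in the RefSeq table of 32851 promoters. A C/EBP-type match was found in 4 of the 23 (C1ra, C1s1, C9 and C3) and in 10.8% of all promoters, and an NF-kB-type match in 11 of the 23 and in 50.8% of all promoters. The TATA box letters were found in 4 (Hc, C3ar1, Vtn and C3) and in 13.6% of all promoters. Counted from the annotated start, these matches lie at -239 in Hc, -235 in C3ar1, -137 and -135 in Vtn and 14, past the start, in C3. Whether any of them works as a TATA box was not tested. The counts for the HNF1 type were 4 of the 23 (C4bp, Hc, C8a and Cfp) against 2.54% of all promoters, for the STAT3 type 4 of the 23 (C8a, Masp2, C1ra and Vtn) against 8.3%, for the interferon type 2 of the 23 (Cd59a and Vtn) against 3.44%, and for the HNF4 type 0 of the 23 against 0.475%. Each match or its absence describes letters in this window only.

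Among the other convertase components C4b fell, C2 rose, and C4a and Cfb were not called, which left the 5 members at a median log2 fold change of -0.36. C4b, the C4 protein that forms the classical and lectin convertase with C2, had 1031, 1093 and 1119 CPM in the knockout libraries, against 1758, 1643 and 1536 CPM in the control libraries. The groups did not overlap and C4b fell by 0.61 ± 0.11 on the log2 scale (SE, edgeR adjusted p = 0.006813), but with library size alone its value was -0.01 and it was not called. C4a, a near-identical neighbour annotated as a processed transcript, averaged 70.2 ± 16.2 CPM in knockout and 83.2 ± 25.5 CPM in control libraries (SD, n = 3 each, edgeR adjusted p = 0.5215). Reads of C4a and C4b can be split or misassigned in counting, so the C4a level is uncertain. C2 (ENSMUSG00000024371, chromosome 17, 34862604 to 34898265, minus strand), the protease part of that convertase, had 17.1, 17.5 and 15.8 CPM in the knockout libraries, against 7.16, 7.77 and 7.54 CPM in the control libraries. Each knockout library was above each control library, with a rise of 1.16 ± 0.13 on the log2 scale (SE, edgeR adjusted p = 0.001265), the highest fold change of the 32 members. The annotated C2 gene shares 17385 of its 35662 bases with Zbtb12 on the opposite strand, and Zbtb12 itself had 432 counts in knockout and 177 counts in control libraries, with a log2 fold change of 0.62. Cfb, factor B of the alternative pathway convertase, lies 85 bases from C2 on the same strand and averaged 2.58 ± 0.43 CPM in knockout and 3.3 ± 1.07 CPM in control libraries (SD, n = 3 each). It was not called (edgeR adjusted p = 0.4064). Within each library the ratio of C2 to Cfb CPM was 5.58, 7.33 and 6.93 in the knockout libraries, against 2.13, 1.79 and 3.41 in the control libraries, without overlap (exact two-sided permutation p = 0.1, adjusted p = 0.2 over the 12 ratios).

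The 6 terminal components among the members, which act in the membrane attack complex, were lower in the knockout, whereas C7, outside the list, was called higher, at 1.22 on the log2 scale. All 6 passed the test, at a median log2 fold change of -1.06, with C8g turning to 0.02 with library size alone. C8a (ENSMUSG00000035031, chromosome 4, 104815679 to 104876398, minus strand), the alpha chain of C8, had 36, 86.8 and 23 CPM in the knockout libraries, against 836, 909 and 846 CPM in the control libraries. The highest knockout library, replicate 2, lay far below the lowest control library. The mean was 48.6 ± 33.7 CPM in knockout and 864 ± 39.2 CPM in control libraries (SD, n = 3 each), a control level 17.8 times the knockout level. C8a fell by 4.15 ± 0.52 on the log2 scale (SE, edgeR adjusted p = 0.003339), with a log2 fold change of -4.89 without knockout replicate 2 and of -3.58 with library size alone. Of C8a's 60720 bases 1809 are shared with Gm17662 on the opposite strand, which had 0 counts in knockout and 9 counts in control libraries.

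C8b (ENSMUSG00000029656, chromosome 4, 104766317 to 104804548, plus strand), the beta chain of C8, lies 11130 bases from C8a and is read towards it. It had 174, 265 and 169 CPM in the knockout libraries, against 483, 365 and 346 CPM in the control libraries. The groups did not overlap and C8b fell by 0.97 ± 0.21 on the log2 scale (SE, edgeR adjusted p = 0.01481), though the call ended without knockout replicate 1 (edgeR adjusted p = 0.06579), without knockout replicate 3 (0.0556) and with library size alone. C8g, the gamma chain, had 248, 222 and 206 CPM in the knockout libraries, against 283, 351 and 362 CPM in the control libraries. It fell by 0.56 ± 0.14 (SE, edgeR adjusted p = 0.02204), but without knockout replicate 2 or 3 or control replicate 2 or 3 the edgeR adjusted p was 0.06018 to 0.07872. C8g shares 970 of its 3069 bases with Fbxw5 on the opposite strand. The chains of this protein were then set against each other by ratios within each library, which need no scaling between libraries. C8a to C8b was 0.207, 0.328 and 0.136 in the knockout libraries, against 1.73, 2.49 and 2.45 in the control libraries, a log2 difference of -3.38. C8a to C8g was 0.145, 0.391 and 0.112 in the knockout libraries, against 2.95, 2.59 and 2.34 in the control libraries, a log2 difference of -3.82. Both ratios were lower in every knockout library (exact two-sided permutation p = 0.1 each, the smallest possible, and adjusted p = 0.2 over the 12 ratios). C8b to C8g overlapped, with 0.7, 1.19 and 0.82 in the knockout libraries, against 1.7, 1.04 and 0.956 in the control libraries (exact two-sided permutation p = 0.3, adjusted p = 0.36).

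**Figure D2:**
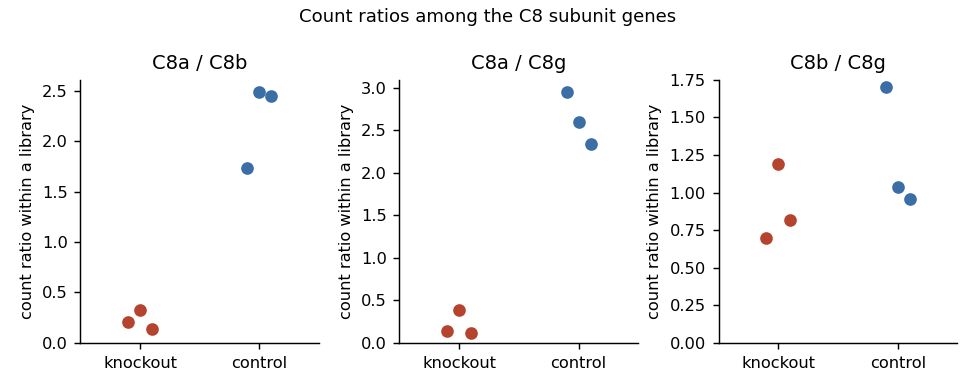
Ratios of counts between the chains of C8 within each library, on linear axes from 0, with knockout libraries left of control libraries and 1 point per library. C8a to C8b lies between 0.136 and 0.328 in knockout and between 1.73 and 2.49 in control libraries, whereas C8b to C8g overlaps between the genotypes.

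The start regions of C8a and C8b are shown beside each other because these neighbours code for chains of the same protein and had different fold changes as point estimates. The promoters are from RefSeq GRCm38.p6, C8a at chr4:104876349-104876648 on the minus strand and C8b at chr4:104766067-104766366 on the plus strand, with motif matches in capitals.
C8a: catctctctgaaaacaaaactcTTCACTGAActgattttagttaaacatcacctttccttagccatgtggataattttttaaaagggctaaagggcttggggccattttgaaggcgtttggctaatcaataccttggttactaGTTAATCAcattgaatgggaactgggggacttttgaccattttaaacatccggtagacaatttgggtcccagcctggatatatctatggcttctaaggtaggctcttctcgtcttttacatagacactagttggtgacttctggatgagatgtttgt
C8b: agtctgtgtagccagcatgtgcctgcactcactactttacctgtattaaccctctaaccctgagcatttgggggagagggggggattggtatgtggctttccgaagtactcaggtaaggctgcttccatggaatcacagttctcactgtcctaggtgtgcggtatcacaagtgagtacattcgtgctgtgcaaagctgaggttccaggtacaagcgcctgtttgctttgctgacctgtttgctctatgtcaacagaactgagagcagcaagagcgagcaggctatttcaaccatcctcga
C8a holds a STAT3-type match at position 23 and an HNF1-type match at position 144, counted from the first base printed, and C8b holds none of the motifs searched in this window.

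Hc, the mouse gene of C5, which C5 convertases cleave, had 420, 536 and 425 CPM in the knockout libraries, against 914, 931 and 898 CPM in the control libraries. The groups stood well apart and Hc fell by 0.99 ± 0.13 on the log2 scale (SE, edgeR adjusted p = 0.002123). C6, the next component to join the complex after C5b, had 113, 167 and 82.7 CPM in the knockout libraries, against 352, 284 and 286 CPM in the control libraries. It fell by 1.35 ± 0.25 (SE, edgeR adjusted p = 0.007878), with knockout replicate 2 the highest of its group but below every control library. C9, which polymerises to form the pore, had 205, 298 and 203 CPM in the knockout libraries, against 420, 601 and 520 CPM in the control libraries. The groups did not overlap and C9 fell by 1.13 ± 0.20 (SE, edgeR adjusted p = 0.006487). Hc, C6 and C9 were also called lower with library size alone, at -0.40, -0.76 and -0.55.

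**Figure D3:**
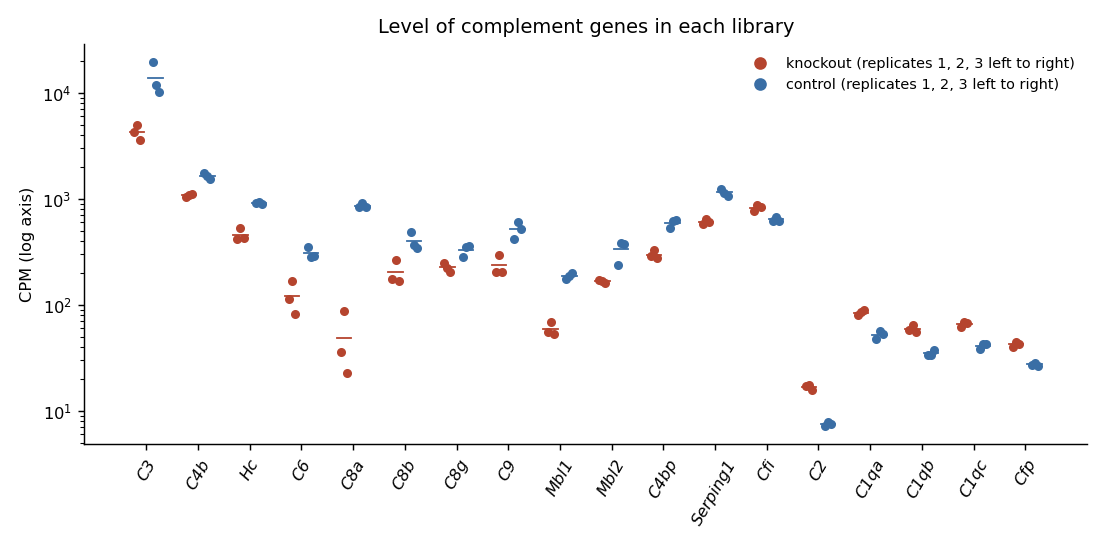
CPM of complement genes in every RNA library on a log axis, with knockout libraries left of control libraries for each gene and horizontal marks at the group means. C8a lies between 23 and 86.8 CPM in knockout and between 836 and 909 CPM in control libraries, and C3 at 3583 to 4963 CPM in knockout and 10229 to 19442 CPM in control libraries.

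Fluid-phase regulators, which restrain the cascade in plasma, were lower in 4 cases and higher in 1, with a median log2 fold change of -0.46. C4bp, which holds back the classical and lectin convertase as a cofactor of factor I, had 290, 327 and 277 CPM in the knockout libraries, against 531, 619 and 626 CPM in the control libraries. Serping1, the C1 inhibitor that inactivates C1r, C1s and the MASP proteases, had 581, 641 and 607 CPM in the knockout libraries, against 1240, 1129 and 1073 CPM in the control libraries. Neither gene overlapped between the genotypes. C4bp fell by 0.99 ± 0.12 on the log2 scale (SE, edgeR adjusted p = 0.00174) and Serping1 fell by 0.91 ± 0.11 (SE, edgeR adjusted p = 0.001625), and both calls held in all 12 alternatives computed. Clu, clusterin, which binds the assembling attack complex, had 2265, 2177 and 2030 CPM in the knockout libraries, against 3548, 2723 and 2660 CPM in the control libraries. Vtn, vitronectin, which also binds that complex, had 3307, 3215 and 3282 CPM in the knockout libraries, against 4379, 4079 and 4095 CPM in the control libraries. Knockout values lay below control values for both genes, with a fall of 0.46 ± 0.14 for Clu (SE, edgeR adjusted p = 0.04643) and 0.36 ± 0.10 for Vtn (SE, edgeR adjusted p = 0.03503). Their signs turned to 0.13 and 0.23 with library size alone. Cfi, factor I, the protease that degrades C3b and C4b, was the exception, with 774, 875 and 829 CPM in the knockout libraries, against 619, 674 and 622 CPM in the control libraries. It did not overlap and rose by 0.37 ± 0.11 (SE, edgeR adjusted p = 0.03953). The calls of Clu, Vtn and Cfi were lost when any library but control replicate 1 was dropped, at an edgeR adjusted p of 0.06527 to 0.1311 for Clu, 0.0777 to 0.1113 for Vtn and 0.08902 to 0.1416 for Cfi. With upper-quartile factors Clu (edgeR adjusted p = 0.06096) and Vtn (0.06764) were also not called, and Vtn was not called without the count filter (0.05322).

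The membrane regulators, which protect the cell's own surface, were not called. Cd55, which speeds decay of convertases, averaged 9.76 ± 1 CPM in knockout and 8.11 ± 0.9 CPM in control libraries (log2 fold change 0.27, edgeR adjusted p = 0.2695). Cd59a, which blocks insertion of C9, averaged 54.9 ± 7.53 CPM in knockout and 58.2 ± 15.3 CPM in control libraries (log2 fold change -0.08, edgeR adjusted p = 0.7965). Cr1l (Crry), the rodent regulator of C3 convertases, averaged 35.6 ± 1.49 CPM in knockout and 33.9 ± 7.15 CPM in control libraries (log2 fold change 0.07, edgeR adjusted p = 0.7699). The groups overlapped for all 3 genes (SD, n = 3 each). With library size alone Cd55 and Cr1l were called higher, at 0.85 and 0.65, beside the 0.59 by which that scaling moved all genes.

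The C1q genes rose together. C1qa, C1qb and C1qc, neighbours on chromosome 4 that code for the A, B and C chains of C1q, were all higher in the knockout. C1qa (ENSMUSG00000036887, 136895917 to 136898803, minus strand) had 79.5, 84.9 and 88.7 CPM in the knockout libraries, against 47.6, 56.9 and 53 CPM in the control libraries. C1qb (ENSMUSG00000036905, 136880129 to 136886187, minus strand) had 58, 64.4 and 55.5 CPM in the knockout libraries, against 33.6, 33.9 and 37.9 CPM in the control libraries. C1qc (ENSMUSG00000036896, 136889804 to 136893065, minus strand) had 61.9, 69 and 67 CPM in the knockout libraries, against 38.5, 42.4 and 42.8 CPM in the control libraries. Each of the 3 was higher in every knockout library than in any control library. C1qa rose by 0.68 ± 0.11 on the log2 scale (SE, edgeR adjusted p = 0.004599), C1qb by 0.76 ± 0.11 (SE, edgeR adjusted p = 0.003229) and C1qc by 0.68 ± 0.10 (SE, edgeR adjusted p = 0.003687). Ratios between the chains overlapped between the genotypes. C1qa to C1qb was 1.37, 1.32 and 1.6 in knockout and 1.42, 1.68 and 1.4 in control libraries (exact two-sided permutation p = 0.5, adjusted p = 0.545 over the 12 ratios).

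Markers of macrophages moved with C1q. Of 18 macrophage markers tested 11 were higher and 0 lower in the knockout (7 not called), beside 12.6% higher and 13% lower among all genes tested. Their median log2 fold change was 0.83, and their summed level was 808 to 991 CPM in knockout and 397 to 499 CPM in control libraries. Clec4f, a lectin of Kupffer cells, the resident macrophages of the liver, averaged 148 ± 27.4 CPM in knockout and 73.8 ± 9.07 CPM in control libraries (SD, n = 3 each, edgeR adjusted p = 0.004616). Cd5l, a secreted macrophage protein, averaged 132 ± 5.89 CPM in knockout and 67.6 ± 9.04 CPM in control libraries (SD, n = 3 each, edgeR adjusted p = 0.002042). Adgre1, the F4/80 antigen, averaged 17.5 ± 5.16 CPM in knockout and 9.48 ± 0.348 CPM in control libraries (SD, n = 3 each, edgeR adjusted p = 0.02259). The Adgre1 call ended without knockout replicate 1 or 2 or control replicate 2 or 3, with edgeR adjusted p from 0.05862 to 0.07345. The summed C1q genes had 199 to 218 CPM in knockout and 120 to 134 CPM in control libraries. Set against the summed macrophage markers of the same library, C1q was 0.247, 0.22 and 0.225 in the knockout libraries, against 0.302, 0.267 and 0.296 in the control libraries. That ratio was lower in all 3 knockout libraries (log2 difference -0.32, exact two-sided permutation p = 0.1, adjusted p = 0.2 over the 12 ratios). Mpeg1, with the highest fold change of these markers, had 195 ± 19.1 CPM in knockout and 43 ± 7.53 CPM in control libraries (SD, n = 3 each). The ratio without Mpeg1 was not computed. C1q against Adgre1 alone overlapped, with 12.1, 9.44 and 16.3 in the knockout libraries, against 12.2, 14 and 14.7 in the control libraries (exact two-sided permutation p = 0.6, adjusted p = 0.6). Against Clec4f it also overlapped (log2 difference -0.29, exact two-sided permutation p = 0.2, adjusted p = 0.343). Against Cd5l it did not, with 1.59, 1.6 and 1.57 in knockout and 2.05, 1.74 and 1.97 in control libraries (exact two-sided permutation p = 0.1, adjusted p = 0.2). Endothelial markers summed to 249 to 390 CPM in knockout and 207 to 261 CPM in control libraries, and 1 of 7, Lyve1, was called higher, with 32 ± 11.3 CPM in knockout and 7.03 ± 1.83 CPM in control libraries (SD, n = 3 each, edgeR adjusted p = 0.003014), while stellate and fibroblast markers summed to 209 to 250 CPM in knockout and 102 to 222 CPM in control libraries. The part of macrophage content in the C1q values was not tested.

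**Figure D4:**
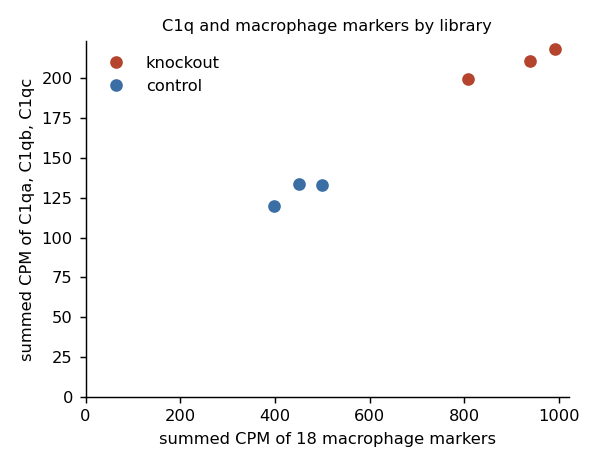
Summed CPM of C1qa, C1qb and C1qc (vertical axis) against summed CPM of the macrophage markers (horizontal axis), 1 point per RNA library. The knockout libraries lie at 199 to 218 CPM of C1q and 808 to 991 CPM of markers, above and to the right of the control libraries at 120 to 134 and 397 to 499 CPM.

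Cfp, properdin, which stabilises the alternative convertase and is made largely by myeloid cells, had 40.3, 44.5 and 43.1 CPM in the knockout libraries, against 27, 28.5 and 26.7 CPM in the control libraries. The groups did not overlap and Cfp rose by 0.64 ± 0.10 on the log2 scale (SE, edgeR adjusted p = 0.004363), beside the rise of the macrophage markers given above, whose part in it was not tested. Neutrophil markers, another myeloid source, summed to 0.636 to 3.05 CPM in knockout and 0.162 to 6.37 CPM in control libraries, with Mpo at 0 in all controls. Cfd, factor D, the protease that cleaves factor B, had 0, 2 and 0 counts in the knockout libraries, against 29, 25 and 46 counts in the control libraries. Summed over libraries the control level was 78.7 times the knockout level, with an exact 95% interval of 21.2 to 659 that covers counting error only. Every knockout library was below every control library, but Cfd reached the test only through the control libraries, so its call (edgeR adjusted p = 0.002011) is given as a description. The fitted log2 fold change was -6.02, and -8.39 without knockout replicate 2, which held both knockout counts. The fat cell genes Adipoq and Plin1 were near 0 in both genotypes, at most 0.0635 and 0.0323 CPM in knockout and 0.143 and 0.108 CPM in control libraries. Cidec, a lipid droplet gene that hepatocytes can also express, had 30.6, 32.3 and 10.2 CPM in the knockout libraries, against 65.2, 11 and 10.9 CPM in the control libraries, with overlap and not called.

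Receptors for the fragments released from C3 and C5 were not called. C3ar1, the C3a receptor, averaged 3.41 ± 0.177 CPM in knockout and 2.48 ± 0.394 CPM in control libraries, without overlap (SD, n = 3 each, log2 fold change 0.46, edgeR adjusted p = 0.1759). C5ar1, the C5a receptor, averaged 2.08 ± 0.397 CPM in knockout and 1.44 ± 0.75 CPM in control libraries, with overlap (SD, n = 3 each, log2 fold change 0.52, edgeR adjusted p = 0.3607). Neither passed the test, but without control replicate 1 C5ar1 was called higher, at 1.02 (edgeR adjusted p = 0.0485). With library size alone both were called higher, at 1.04 and 1.12.

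Genes of the pathway outside the 32 gave a mixed picture. Of 33 further complement and pattern-recognition genes, 31 were in the table and 27 were tested, of which 5 were higher, 7 lower and 15 not called, with a median log2 fold change of -0.17. Among all genes tested 12.6% were called higher and 13% lower. The 5 higher genes included Vsig4, a complement receptor of Kupffer cells, with 28.5 ± 4.08 CPM in knockout and 15.7 ± 1.94 CPM in control libraries (SD, n = 3 each, edgeR adjusted p = 0.007121). Fcna, ficolin A, a lectin made by macrophages in the mouse, had 31.6 ± 2.93 CPM in knockout and 17.8 ± 2.62 CPM in control libraries (SD, n = 3 each, edgeR adjusted p = 0.006754). The integrin subunits Itgax and Itgb2, which form complement receptor 4, were at 2.73 ± 0.699 and 13.4 ± 2.53 CPM in knockout and 1.04 ± 0.154 and 6.95 ± 1.04 CPM in control libraries (SD, n = 3 each, edgeR adjusted p = 0.01337 and 0.01271). C7, a terminal component, was the last of the 5, with 2.53 ± 0.916 CPM in knockout and 1.08 ± 0.339 CPM in control libraries (SD, n = 3 each, edgeR adjusted p = 0.04729). The C7 call ended without knockout replicate 1 or 3 or control replicate 2 or 3 (edgeR adjusted p 0.1077 to 0.144) and with a replicate block (0.05325), and the Itgb2 call without knockout replicate 2 (0.0511) or control replicate 3 (0.0522). Susd4, a membrane protein known to inhibit complement, fell by 2.69 on the log2 scale, with 11.4 ± 4.01 CPM in knockout and 73.5 ± 20.4 CPM in control libraries (SD, n = 3 each, edgeR adjusted p = 0.002446). Cfhr2, a relative of factor H, had 239 ± 20 CPM in knockout and 423 ± 37.8 CPM in control libraries (SD, n = 3 each, edgeR adjusted p = 0.003308), and its call ended with library size alone, at -0.24.

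Of 19 transcription factors, receptors and regulators known to act on complement genes in liver, all tested, 3 were higher, 8 lower and 8 not called. The shares among all genes tested were 12.6% higher and 13% lower. Cebpa, a factor of hepatocyte identity, had 340, 314 and 256 CPM in the knockout libraries, against 838, 670 and 702 CPM in the control libraries (log2 fold change -1.28, edgeR adjusted p = 0.001388). Hnf4a, a nuclear receptor that drives liver genes, had 619, 660 and 472 CPM in the knockout libraries, against 1783, 1417 and 1276 CPM in the control libraries (log2 fold change -1.35, edgeR adjusted p = 0.002242). Il1r1, the interleukin-1 receptor, averaged 26.1 ± 5.66 CPM in knockout and 103 ± 54.7 CPM in control libraries (SD, n = 3 each, log2 fold change -1.98, edgeR adjusted p = 0.01177, 0.05016 without knockout replicate 1 and 0.07024 without the count filter). None of these 3 genes overlapped between the genotypes. Esr1, the oestrogen receptor, rose by 1.41 on the log2 scale, with 31.2 ± 3.88 CPM in knockout and 11.7 ± 2.51 CPM in control libraries (SD, n = 3 each, edgeR adjusted p = 0.001949). Osmr, the oncostatin M receptor, was at 8.04 ± 1.53 CPM in knockout and 4.36 ± 0.266 CPM in control libraries (SD, n = 3 each, edgeR adjusted p = 0.01808). The Osmr call ended without knockout replicate 1 or 2 or control replicate 2 or 3 (edgeR adjusted p 0.05238 to 0.06855).

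The ChIP lists, 1 per genotype, give regions as the authors called them, each with its own fold over background. The sample titles name RNA polymerase III, whereas the series' design text describes ChIP for Lcmr1, so the protein pulled down is uncertain and the libraries are called ChIP here. The knockout list held 1309 distinct regions over 669222 bases, and the control list 16995 regions over 10414789 bases. With 1 library per genotype there is no test, and presence in the longer list alone does not show a difference in binding. In the knockout list 1 of the 32 members (C3) had a region in the gene or within 1 kb of it, against 4.81% of all genes tested. In the control list 18 of the 32 members had a region, against 42.8% of all genes tested. Among members of at least 100 CPM in the controls 14 of 18 had a control region, against 83.3% of all genes at that level. The 18 members with a control region included 2 higher and 13 lower members, and the 14 members without a control region included 4 higher and 5 lower members. These sets also differed in level, with a median control CPM of 462 with a region and 38.2 without. The calls of all genes were not counted by region, so the split describes these members only. All 3 C1q genes, Cfp, Cfd and both receptors were among the members with no region in either list.

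C3 and Clu stood out within the control list by how much of the gene was covered. Control regions covered 87.1% of the 24167 bases of C3, and 84 of the 15135 genes tested had at least this cover. They ran from 2952 to 25724 bases past the C3 start, past the gene's end, with 40 summits, a highest fold of 17.1 (-log10 q-value 32.3) at 12266 bases from the start, and none within 1 kb of the start. In the knockout list C3 had 3 regions that covered 4.3% of the gene, with folds of 4.23 to 5.46. For Clu, 3 control regions covered 90.5% of 13065 bases, with 23 summits and a highest fold of 17.4 (-log10 q-value 36.9) at 8886 bases. Of these 3 regions, 1 lay at the start. At least this cover was found in 71 genes tested. Clu had no region in the knockout list. C8a, the member with the largest fall among those of at least 100 CPM, had 20 control regions that covered 17.7% of the gene, with a highest fold of 8.34 at 37749 bases from the start. C4b had 9 control regions that covered 23% of the gene, with the highest fold, 7.58, at a distance of -17 bases from the start, just before it. Cfb had 3 control regions that covered 30.5% of the gene. C8b, next to C8a, had no region in either list.

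**Figure D5:**
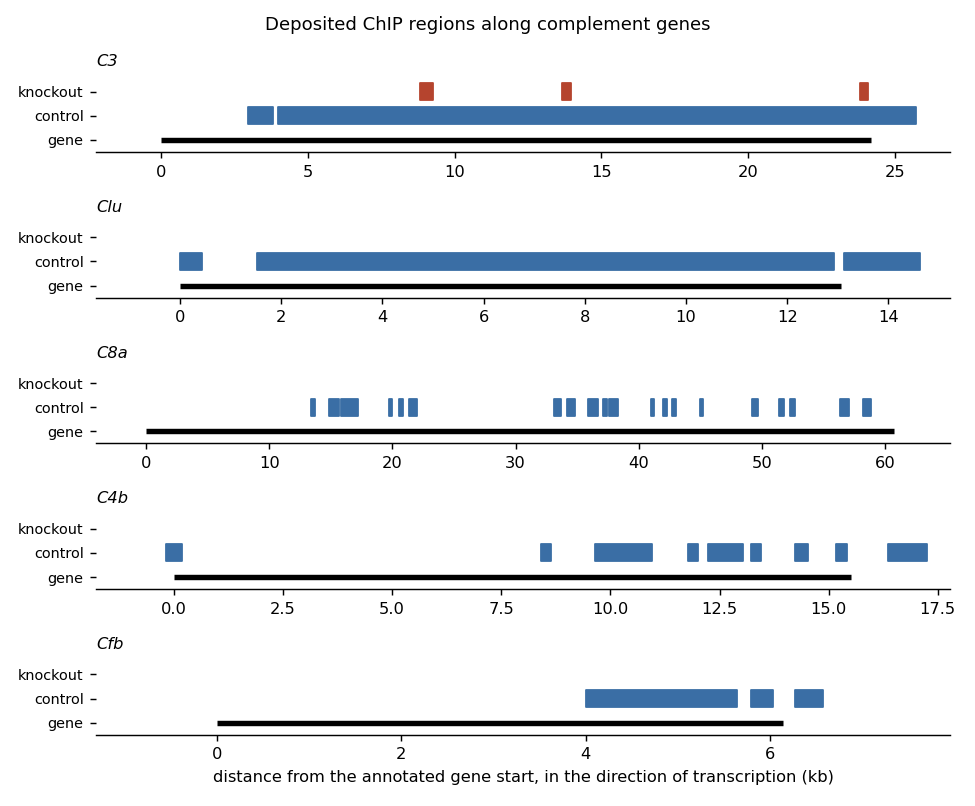
ChIP regions of the authors' lists along C3, Clu, C8a, C4b and Cfb, by distance from the annotated gene start in kb, with the knockout row above the control row and the gene as a black bar. Control regions fill most of C3 and Clu (87.1% and 90.5% of the gene), and of these genes C3 alone has regions in the knockout list, 3 in number.

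Within 1 kb of the gene start no member had a region in the knockout list (0 of 32) and 6 did in the control list (C8g, Clu, Serping1, Cd59a, C1ra and C4b). The share of all genes tested was not computed for this window, so these counts describe the members only. The C8g region covers the start of Fbxw5 on the opposite strand (25500750), so it cannot be assigned to C8g alone. Among the 23 members in the promoter table, C8g and Cd59a had a control region overlapping a RefSeq promoter, and the Cd59a sequence is shown for that reason (RefSeq GRCm38.p6, chr2:104095551-104095850, plus strand). C4b and Clu had control regions of higher fold at their starts (7.58 and 11.6) but are not among those 23. The Cd59a region had a fold of 3.53 and its summit lay 89 bases past the start, and capitals mark motif matches.
Cd59a: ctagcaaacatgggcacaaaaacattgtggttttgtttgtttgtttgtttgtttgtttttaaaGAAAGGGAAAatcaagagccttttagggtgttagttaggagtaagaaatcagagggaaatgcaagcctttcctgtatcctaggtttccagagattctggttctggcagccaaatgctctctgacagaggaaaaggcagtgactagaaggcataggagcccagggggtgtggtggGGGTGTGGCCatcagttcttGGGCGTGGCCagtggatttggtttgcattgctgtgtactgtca
An interferon-type match lies at position 64 and NF-kB-type matches at 238 and 258, counted from the first base printed, and the RNA of Cd59a was not called different between the genotypes.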

How the data were processed

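RNA was counted per gene in 3 knockout and 3 control libraries, and groups and replicate numbers were read from the sample titles. The deposited table holds whole-number counts for 27277 genes with mm10 positions, and HISAT2 2.1.0, Bowtie2 2.2.3 and HTSeq 0.6.0 are named in the submitters' processing notes. The sources used here do not give the strand setting, so reads of overlapping genes on opposite strands cannot be told apart. The authors' deposited table also holds their comparison, given by gene as a log2 fold change, the linear fold change (ratio), p-values before and after adjustment and a mean normalized signal. The ChIP lists, 1 per library, give for each region, as deposited by the authors, its fold over background (ratio), its score and its p-value and q-value as -log10. The submitters' processing notes also name MACS2, BWA, SAMtools, DESeq2 and deepTools with no version. The sources used here do not say whether an input library was used for the ChIP lists.

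Counts were filtered with filterByExpr (minimum 10, total 15), which left 15135 genes, scaled by TMM and tested with edgeR 4.0.16 (R 4.3.3) by its robust quasi-likelihood test (two-sided, genotype as the only term, Benjamini-Hochberg threshold 0.05, common biological coefficient of variation 0.235). The TMM factors were 1.196 to 1.269 in knockout and 0.7725 to 0.8375 in control libraries. CPM use TMM-scaled library sizes and are not per gene length, so they do not rank levels between genes. For gene levels, overlap of the groups was read from these CPM, so it depends on the TMM factors. The fit was tested on simulated counts with as many rises as falls, a setting that does not probe the choice of scaling. Alternatives were DESeq2 1.42.0, library size alone, upper-quartile factors, DESeq2 size factors, no count filter, a replicate block and each library left out. Regions were assigned to a gene body extended by 1 kb. Ratios within a library were compared by exact two-sided permutation over the libraries. The exact interval for Cfd was computed with scipy 1.17.1 and covers counting error only.

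The members, gene lists, motifs and the rule for named genes were chosen with earlier results of these data known. The rule gives values in every library for members past the threshold, for C3 and for the C1q genes. From the list of further complement genes and that of regulatory factors it names the genes that passed where 5 or fewer did in a direction, and otherwise the 3 with the smallest adjusted p. It also takes Med19, Alb, Clec4f, Adgre1 and Cd5l. Mpeg1, Lyve1, Cidec, Adipoq, Plin1 and the genes of the closing section were singled out after values were seen. The limit of 100 CPM in the ChIP comparison was set after values were seen. The pairs set against each other as ratios were not fixed by that rule. Adjustment over the ratios does not cover how the pairs were chosen. Some genes the rule takes are not reported here by name, though they are in the counts.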

Additional observations from a re-analysis of the deposited data

How the results depend on the processing

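The calls of 14 of the 32 members (C1qa, C1qb, C1qc, Mbl1, C2, C3, Cfd, Cfp, Hc, C6, C8a, C9, C4bp and Serping1) kept their direction and side of the threshold in all 12 alternatives, Cfd being tested through the control libraries alone. With library size alone 7711 genes were called higher and 617 lower (8328 in all, against 3865), the member median was 0.10, 10 members were higher and 9 lower, and the log2 fold changes turned sign for C4a (0.33), C8g (0.02), Cd59a (0.50), Cfb (0.23), Clu (0.13), Masp1 (0.07), Masp2 (0.19) and Vtn (0.23). Under it 13 further complement genes were higher and 3 lower, 5 factors were higher and 3 lower, and 17 macrophage markers were higher at a median of 1.42. DESeq2 called 4595 genes and 8 further complement genes higher, and without the count filter 5 factors were lower. Upper-quartile factors gave 15 members lower, losing Clu, Masp2 and Vtn. Leaving out 1 library gave 2236 to 4921 genes called (1119 to 2407 higher, 1104 to 2514 lower), 5 to 7 members higher and 13 to 19 lower, 3 to 6 further complement genes higher and 5 to 10 lower, 1 to 3 factors higher and 3 to 9 lower, and 8 to 11 macrophage markers higher. Cd59a ranged from -0.29 (without control replicate 1) to 0.05 (without control replicate 3), with 0.01 without knockout replicate 2, and Cr1l turned to -0.09 without control replicate 1. The causes were not tested.

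The labels do not say whether same-numbered samples are paired, and the main fit did not pair them. The deviations of same-numbered libraries correlated at 0.11, 0.052 and 0.094, and each library correlated best with its own number, a hint from the data and not from the design. With a replicate block 3468 genes were called (1713 higher and 1755 lower), with 5 members higher and 15 lower. The calls of C8g, Cfi, Clu, Masp2 and Vtn ended in that fit, as did that of C7, and Masp1 was called lower (edgeR adjusted p = 0.03042).

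A window of 1 kb around the gene start gave 0 members with a region in the knockout list and 6 in the control list. No share over all genes tested was computed for that window. Motifs read on the gene strand alone were found in 2 members for the C/EBP type, 6 for the NF-kB type and 1 for the interferon type. Cfd, Cfb and both receptors had few counts, which limits what can be read from them. With 1 ChIP library per genotype no error can be given.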

Other observations

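Single libraries held the highest value of their group for many members. Of the 18 members called lower, knockout replicate 2 was the highest knockout library for 12 (66.7%), against 886 of 1960 genes called lower overall (45.2%). It was also the highest knockout library for 5 of the 6 members called higher (83.3%), against 590 of 1905 genes called higher overall (31%). Med19 itself was highest in the same library, at 5.27 CPM, against 2.91 and 3.02 CPM in the other knockout libraries. The part of remaining Med19 RNA in these values was not tested.

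Control replicate 1, which held the highest C3 level, also stood apart for other genes. Socs3, a feedback inhibitor of cytokine signalling, had 22.5, 17 and 10.9 CPM in the knockout libraries, against 179, 15.7 and 14.9 CPM in the control libraries. Apcs, serum amyloid P, had 42.9, 42.9 and 50.7 CPM in the knockout libraries, against 199, 39.8 and 39.1 CPM in the control libraries. Fgb, the fibrinogen beta chain, had 1803, 2130 and 1606 CPM in the knockout libraries, against 14082, 4623 and 4505 CPM in the control libraries. Sox9, a bile duct marker, had 16, 15.9 and 19.4 CPM in the knockout libraries, against 130, 12.1 and 15.8 CPM in the control libraries, and Cidec was high in the same control library. For Socs3 and Apcs the other control libraries lay within or below the range of the knockout libraries, and neither gene was called. The part of these differences in the C3 level of that library was not tested, and C3 was called lower without it. These genes were singled out after their values were seen.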
